A study of Drosophila melanogaster with 6 samples.

Results

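Described here are 5 genes that lie next to the centromere of chromosome 3 of Drosophila melanogaster: eIF4B, Dbp80 and RpL15 on the left arm (3L), and Parp1 and Gfat1 on the right arm (3R). They are 5 of the 63 genes that the platform annotation gives alone for a probe, and they are represented by 7 of its 67 named probes, since eIF4B and Dbp80 have 2 spots each. The genes were chosen by their position and by their log2 ratios of mutant over wild type in an earlier analysis of these arrays, so these ratios, and the count of spots past the threshold of the fit over all probes, are given as a description of the choice. Counted in annotated genes from the centromere end of its arm in the reference table (Release 6), eIF4B has rank 3, Dbp80 rank 6, RpL15 rank 9, Parp1 rank 10 and Gfat1 rank 17. The annotated gene spans range from 1191 bases for RpL15, over 11441 for Gfat1 and 15603 for eIF4B, to 125704 for Parp1 and 142844 for Dbp80.

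The mutant embryos are double heterozygotes for engrailed and gooseberry-neuro (En/GsbN, EN-/GsbN- in the labels), which encode transcription factors of segments and neurons. They were set against wild-type Oregon embryos. Total RNA was amplified and labelled, and mutant and wild-type RNA were hybridised together on 6 two-colour arrays, as 3 biological replicates, selected independently, with the dyes swapped between the 2 arrays of each. The labels used here do not state the alleles, the embryo stage or the background of the mutant stock, so mutation and stock cannot be told apart. In the reference table both mutated loci lie on chromosome arm 2R, whereas the 5 genes lie on chromosome 3.

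The genes lie in or next to pericentromeric heterochromatin, the repeat-rich, compact chromatin that flanks each centromere. It is marked by methylation of histone H3 on lysine 9 and bound by heterochromatin protein 1, and although it silences many genes moved into it, the genes that reside there are transcribed in that setting. Their products serve general cell functions. eIF4B assists the RNA helicase eIF4A when the small ribosomal subunit is loaded onto capped mRNA, RpL15 is a protein of the large ribosomal subunit, and Dbp80 is a DEAD-box RNA helicase related to the mRNA export factor DDX19 of vertebrates. Parp1 builds poly(ADP-ribose) chains on nuclear proteins and is known in flies for its part in chromatin structure. Gfat1 makes glucosamine 6-phosphate, the first step of the hexosamine pathway, which feeds protein glycosylation and the chitin of the cuticle.

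A spot counts as above background here where its volume is at least 2 times its local background. By array, mutant RNA gave such signal on 39.6% to 64.2% of the 14722 probes tested, and wild-type RNA on 38.4% to 63.9%. All 7 spots were above background in both channels on all 6 arrays, except Parp1, whose mutant channel passed on 5 arrays. None was flagged in the scanner tables. The muscle genes Mlc1, Prm and up were also above background in both channels on all 6 arrays, and the 5 named genes of the adult male germ line were above it in neither channel on any array. Of the muscle genes, Mlc1 had log2 ratios of 0.01, -0.97 and -1.89 in replicates 1, 2 and 3, Prm -0.14, -0.71 and -0.55, and up -0.34, -1.58 and -1.26. All 3 had a mean below 0, as the 5 genes did, and none passed in limma (adjusted p = 0.166, 0.0883 and 0.0573 in that order). Their summed background-subtracted volumes were 108 to 424 for mutant RNA and 230 to 899 for wild-type RNA, with the mutant lower on the 4 arrays of replicates 2 and 3 and higher on the 2 of replicate 1. The neuron markers Ace, Dscam1 and Snap25 also had means below 0, at -0.48, -0.39 and -0.08. Their mutant RNA was above background on 0, 2 and 0 arrays in that order, and their wild-type RNA on 1, 4 and 1. The part of muscle or neuron genes in the ratios of the 5 genes was not tested. Across probes, which are not independent replicates, the log2 ratios of a dye swap correlated at 0.87 to 0.94, and those of arrays from unlike replicates at 0.58 to 0.79.

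The level of eIF4B was lower in the mutants on both of its spots. On probe 8610 the log2 ratio of mutant over wild type, averaged over the dye swap, was -2.63, -2.11 and -2.81 in replicates 1, 2 and 3, with a mean of -2.51 ± 0.36 (SD, n = 3), or 5.71-fold lower. Probe 9922 gave -2.64, -2.25 and -2.50, with a mean of -2.46 ± 0.20 (SD, n = 3). Single arrays ran from -2.90 to -1.97 on probe 8610 and from -2.70 to -2.19 on probe 9922, so every array was below 0. Only 17 of the 14722 tested probes had a lower mean ratio than probe 8610, and 24 had a lower one than probe 9922. In bulk embryos, fewer cells with a transcript and less of it per cell cannot be told apart.

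The deposited background-subtracted volumes, in pixel levels times square mm, show the same order before any normalization. With mutant RNA in Cy3, eIF4B probe 8610 had volumes of 26.3, 25.0 and 6.24 in replicates 1, 2 and 3, against 177, 96.2 and 54.3 for wild-type RNA in Cy3 on the swapped arrays. With mutant RNA in Cy5 it had 28.4, 16.5 and 10.6, against 173, 95.8 and 36.4 for wild-type RNA in Cy5. In each dye the mutant was lower in all 3 replicates, and replicate 3 was the dimmest in both genotypes.

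Probe 9922 was dimmer, with 14.3, 13.0 and 2.20 for mutant RNA in Cy3, against 117, 59.7 and 21.3 for wild-type RNA in Cy3. In Cy5 it had 18.2, 9.91 and 4.25 for mutant RNA, against 104, 66.2 and 17.5 for wild-type RNA, so the genotypes overlapped there across replicates, while the mutant was lower within each of the 3 replicates.

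The 2 spots of eIF4B occupy the same place, row 10 and column 5, in blocks 4 and 8 of the print. Their log2 ratios differed (8610 minus 9922) by 0.01, 0.14 and -0.30 in replicates 1, 2 and 3, a mean of -0.05 ± 0.23 (SD, n = 3), which is within the spread between replicates. An exact sign-flip permutation test over replicates gave p = 1 (two-sided), where 3 replicates allow no p under 0.25. The probe sequences were not analysed here, so the spots may carry the same sequence, and which of the 4 annotated eIF4B transcripts they detect is not known.

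**Figure D1:**
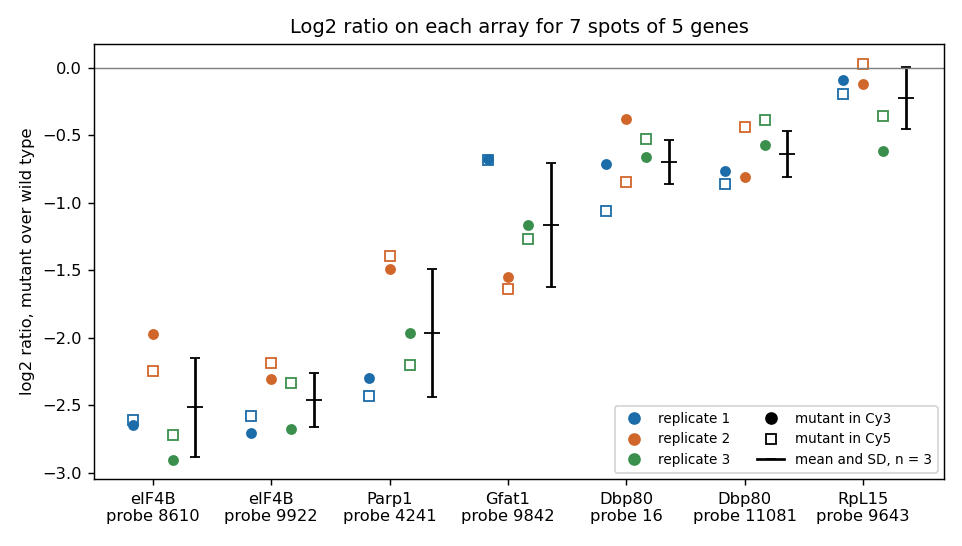
The vertical axis is the log2 ratio of mutant over wild type, and each point is 1 array for 1 of the 7 spots, coloured by biological replicate, with filled circles for mutant RNA in Cy3 and open squares for mutant RNA in Cy5; black bars are mean ± SD over 3 replicates. All points of eIF4B, Parp1, Gfat1 and Dbp80 lie below 0, and RpL15 lies between -0.62 and 0.03.

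Parp1 was also lower in the mutants. Its log2 ratios were -2.36, -1.44 and -2.08 in replicates 1, 2 and 3 (mean -1.96 ± 0.47, SD, n = 3, or 3.90-fold lower). As for eIF4B, replicate 2 had the smallest difference of the 3. Volumes of mutant RNA in Cy3 were 5.64, 5.20 and 1.02, against 46.1, 18.7 and 10.2 for wild-type RNA in Cy3. Volumes of mutant RNA in Cy5 were 6.82, 4.65 and 1.25, against 38.0, 17.8 and 7.94 for wild-type RNA in Cy5. In each dye the mutant was lower in all 3 replicates.

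The mutant channel of Parp1 was close to background in places: its volume was 1.70 times the local background on the array of replicate 3 with mutant RNA in Cy3, and up to 14.8 times on the others. The processing adds a constant to both channels, which by construction moves the ratios of dim spots toward 0. On the arrays of replicate 3 the log2 ratio was -1.97 with mutant RNA in Cy3 and -2.20 with it in Cy5. The background-subtracted volumes as deposited gave -2.97 and -3.02 in the same order. Those volumes also lack the loess normalization, so the gap is not the effect of the constant alone. The authors' deposited log2 ratios of these arrays were -2.50 and -2.65.

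Gfat1 was 2.24-fold lower in the mutants, with a different order of replicates. Its log2 ratios were -0.68, -1.59 and -1.22 in replicates 1, 2 and 3 (mean -1.16 ± 0.46, SD, n = 3), so here replicate 1 had the smallest and replicate 2 the largest difference. Both arrays of a replicate gave nearly the same value, with a largest gap within a dye swap of 0.10, against 0.23 for Parp1 and 0.28 for eIF4B probe 8610. Volumes of mutant RNA in Cy3 were 9.26, 16.5 and 3.42, against 17.3, 50.8 and 6.90 for wild-type RNA in Cy3. Volumes of mutant RNA in Cy5 were 9.29, 12.8 and 2.49, against 16.9, 48.4 and 7.04 for wild-type RNA in Cy5. The genotypes overlapped across replicates, and the mutant was lower in all 3 replicates in each dye.

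The difference was smaller for Dbp80. Probe 16 gave log2 ratios of -0.88, -0.61 and -0.59 in replicates 1, 2 and 3 (mean -0.70 ± 0.16, SD, n = 3, or 1.62-fold lower). Probe 11081 gave -0.81, -0.63 and -0.48 (mean -0.64 ± 0.17, SD, n = 3, or 1.56-fold lower). All 12 array values of the 2 spots were below 0, between -1.06 and -0.38.

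In volumes as deposited the genotypes of Dbp80 overlapped in both dyes. For probe 16 in Cy5, mutant RNA had 13.8, 7.12 and 5.17, against 23.2, 13.9 and 4.55 for wild-type RNA, so the mutant was lower in 2 of 3 replicates. For probe 11081 in Cy3, mutant RNA had 9.81, 7.86 and 4.11, against 22.0, 11.8 and 4.10 for wild-type RNA, and replicate 3 was again the exception. The spots lie in blocks 1 and 10 and differed (16 minus 11081) by -0.06 ± 0.06 in log2 ratio (SD, n = 3), less than the SD between replicates of either spot. On single arrays they differed by up to 0.43. The exact sign-flip permutation p of that difference was 0.5 (two-sided), where the smallest possible is 0.25.

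RpL15 was the brightest of the 7 spots and the one with the smallest difference between the genotypes. Its log2 ratios were -0.14, -0.05 and -0.49 in replicates 1, 2 and 3 (mean -0.23 ± 0.23, SD, n = 3), with 5 of 6 arrays below 0 and 1 at 0.03. The volumes of mutant RNA were 742, 897 and 516 in Cy3, against 730, 757 and 663 for wild-type RNA in Cy3. In Cy5 they were 862, 882 and 918, against 818, 967 and 443 for wild-type RNA. In each dye the mutant was lower in 1 of 3 replicates, replicate 3 in Cy3 and replicate 2 in Cy5.

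Before normalization the log2 ratio of RpL15 net volumes had a median of 0.22 over the 6 arrays (range -0.14 to 0.47), and its sign depended on the normalization. With loess within printed blocks the mean was 0.05, with median centring in place of loess 0.09, and with control spots kept in the loess fit 0.01. Only 4 of the 14722 tested probes, RpL15 included, had a mean level as high, against 526 for eIF4B probe 8610 and 1855 for Gfat1. On single arrays its volume was 43.1% to 77.5% of the highest volume on the array for mutant RNA and 35.2% to 85.1% for wild-type RNA. The scanner tables give no saturation mark, and a limit of the scanner on this ratio was not tested.

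**Figure D2:**
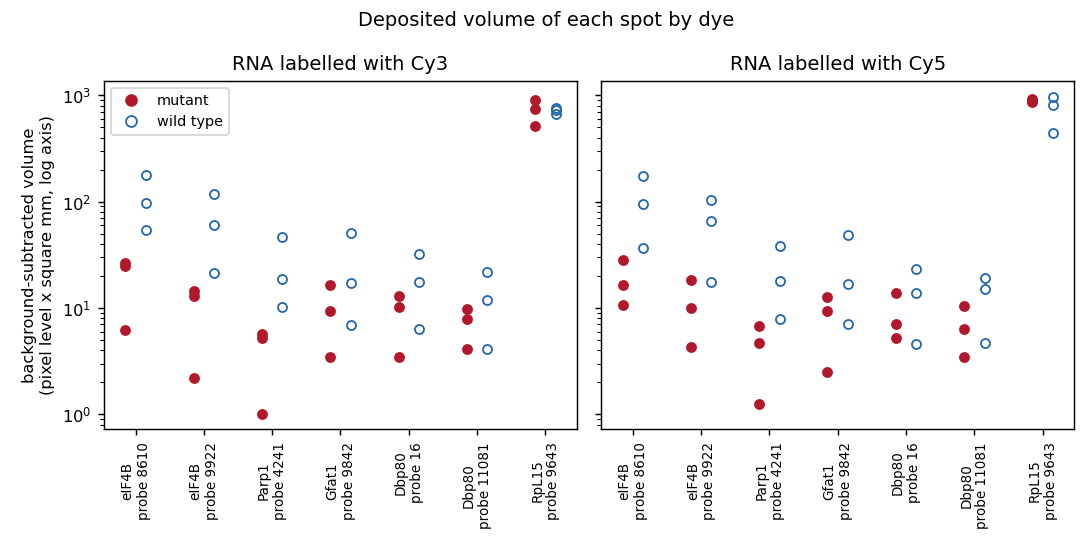
The vertical axis (log scale) is the deposited background-subtracted volume of each spot in pixel levels times square mm, with RNA labelled with Cy3 on the left and with Cy5 on the right; each point is 1 array, mutant filled and wild type open. RpL15 lies between 443 and 967 in both genotypes, and the mutant volumes of Parp1 lie between 1.02 and 6.82.

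In the comparison of mutant with wild type across all 14722 probes (limma, Benjamini-Hochberg adjusted p under 0.05), 17.7% of probes passed in either direction and 10.5% passed as lower in the mutants. The share was larger among brighter probes. In a fit of only the 6299 probes above background in either channel on all 6 arrays, which include the 7 spots, 2647 passed, 1558 of them as lower. Among the 7 spots, 6 passed as lower, those of all genes but RpL15; since the genes were chosen on this same comparison, the count is a description of that choice. Without replicate 2 limma called none of the 7 spots and 0 of all probes, while 2897 probes then had an unadjusted p under 0.05. With an offset of 50 on the deposited volumes it also called none of the 7 spots and 52 of all probes, and the ratio of eIF4B probe 8610 was then -1.10 and that of Parp1 -0.38. In the authors' deposited log2 ratios the means were close to these, at -2.58 and -2.53 for eIF4B, -2.16 for Parp1, -1.22 for Gfat1, -0.70 and -0.67 for Dbp80 and -0.23 for RpL15. The median log2 ratio was -1.16 over the 7 spots and 0.01 over all tested probes. On all 6 arrays, 6 of the 7 spots were below 0, as were 19.7% of all tested probes.

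Whether the ratios depend on the dye is a question that the mean ratio does not decide. With mutant RNA in Cy3 the mean log2 ratio was -2.51 for eIF4B probe 8610, against -2.52 with mutant RNA in Cy5, and -2.56 against -2.37 for probe 9922. Parp1 was at -1.92 with mutant RNA in Cy3 and -2.01 with it in Cy5, Gfat1 at -1.13 and -1.20, and RpL15 at -0.28 and -0.17 in the same order. The 2 spots of Dbp80 moved in opposite directions: probe 16 was at -0.59 with mutant RNA in Cy3 and -0.81 with it in Cy5, probe 11081 at -0.72 and -0.56.

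In a limma fit of all 6 arrays with dye orientation and replicate as terms, 0 of the 7 spots passed for dye orientation, with unadjusted p from 0.109 to 0.886 and adjusted p from 0.655 to 0.976. The share over all probes was 0.0204%, 3 of 14722, so the fit gives few calls for any probe. The differences between orientations among the 7 spots were between -0.19 and 0.22 on the log2 scale, and the median size over all tested probes was 0.10.

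The same fit tested whether the ratio of a probe differed between the 3 biological replicates by more than the arrays of a dye swap did. The test sets biological replicates against the technical spread of a dye swap alone, with 2 residual degrees of freedom. Passing the comparison of mutant with wild type also favours probes whose replicates agree. Of the 7 spots, 3 passed (limma F test, adjusted over all probes), against 31.9% of all tested probes, a share near which the count is no result about these genes. They were Gfat1 (adjusted p = 0.00102), Parp1 (adjusted p = 0.00126) and eIF4B probe 8610 (adjusted p = 0.00878). RpL15 (adjusted p = 0.0656), eIF4B probe 9922 (adjusted p = 0.0991) and Dbp80 (adjusted p = 0.302 on probe 16 and 0.224 on probe 11081) did not pass. In a fit of only the 6299 probes above background in either channel on all 6 arrays, 4178 passed, as did 5 of the 7 spots.

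The calls depended on single replicates and settings. Without replicate 1 the adjusted p of Gfat1 in this limma test was 0.13, with the ratio then at -1.40. Without replicate 2 it was 0.0986 for Parp1 and 0.31 for eIF4B probe 8610, with ratios of -2.22 and -2.72. The call of eIF4B probe 8610 also ended with median centring (adjusted p = 0.183), with the deposited log2 ratios (0.0602) and with control spots kept (0.0516), and that of Gfat1 with median centring (0.0917). Over the 13 alternatives the adjusted p in limma ranged from 0.000651 to 0.31 for eIF4B probe 8610, from 2.3e-06 to 0.0986 for Parp1 and from 2.84e-06 to 0.13 for Gfat1. In the other direction, eIF4B probe 9922 and RpL15 passed in 3 alternatives each, with adjusted p down to 0.00966 and 0.0172. For both spots these alternatives include the fit of probes above background on all 6 arrays, where 4178 of 6299 probes passed.

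Among the named genes of chromosome 3, the 5 genes are those with the lowest ranks. The annotation gives no gene for 15676 of the 15744 spots, so other genes near the centromere may be on the array without a name. On the left arm the next named gene out from RpL15 is MED21, at rank 28, and on the right arm the next one out from Gfat1 is Ace, at rank 1458. MED21, a subunit of the Mediator complex, was at -0.05 ± 0.40 (SD, n = 3), with its replicates at -0.50, 0.09 and 0.26. The homeobox gene scro (rank 33) was at -0.13 ± 0.12, the mitochondrial ribosomal gene mRpS5 (rank 37) at 0.08 ± 0.09 and the synaptic gene Snap25 (rank 41) at -0.08 ± 0.38. These 4 genes all lie on the left arm, and none passed in limma (lowest adjusted p = 0.421), where 17.7% of all tested probes passed. With so few genes, this count is no result about them. MED21 and mRpS5 were above background in both channels on all 6 arrays. Mutant RNA of scro was above background on 1 array and its wild-type RNA on 3, and Snap25 was above it on 0 arrays for mutant RNA and 1 for wild-type RNA, so the ratios of scro and Snap25 give no measured level. Over both arms the ratios of the 5 genes had no single order by rank. On the left arm they were -2.51 for eIF4B and -0.70 for Dbp80, each on its brighter spot, and -0.23 for RpL15, whereas Parp1 at -1.96 and Gfat1 at -1.16 on the right arm have higher ranks than Dbp80 and RpL15 and lower ratios.

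The other 13 named genes of chromosome 3 have ranks of 1344 and above. Of these, 2 passed as lower and 0 as higher: vsg at -0.81 ± 0.24 and SNF4Agamma, a subunit of AMP-activated protein kinase, at -0.75 ± 0.25 (SD, n = 3). Over all tested probes 10.5% passed as lower and 17.7% in either direction, shares near which these counts are no result about the genes. The 12 of these 13 genes detected on at least 1 array had a median log2 ratio of -0.25, against -1.16 for the 5 genes. They ran from -0.95 to 0.39, and 5 of the 12 were below 0 on all 6 arrays, as were 0 of the 4 nearer genes. The 5 include Ace, which was above background on 0 arrays for mutant RNA and 1 for wild-type RNA. The 4 include scro and Snap25, so the median and these counts take in genes with no measured level. On chromosome 2, 7 named genes lie within the same 41 ranks of the centromere. Their median was -0.96, with a range from -1.15 to 0.22. On all 6 arrays 5 of the 7 were below 0, against 19.7% of all tested probes. These groups were formed with the values known, so no test of their difference is given.

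**Figure D3:**
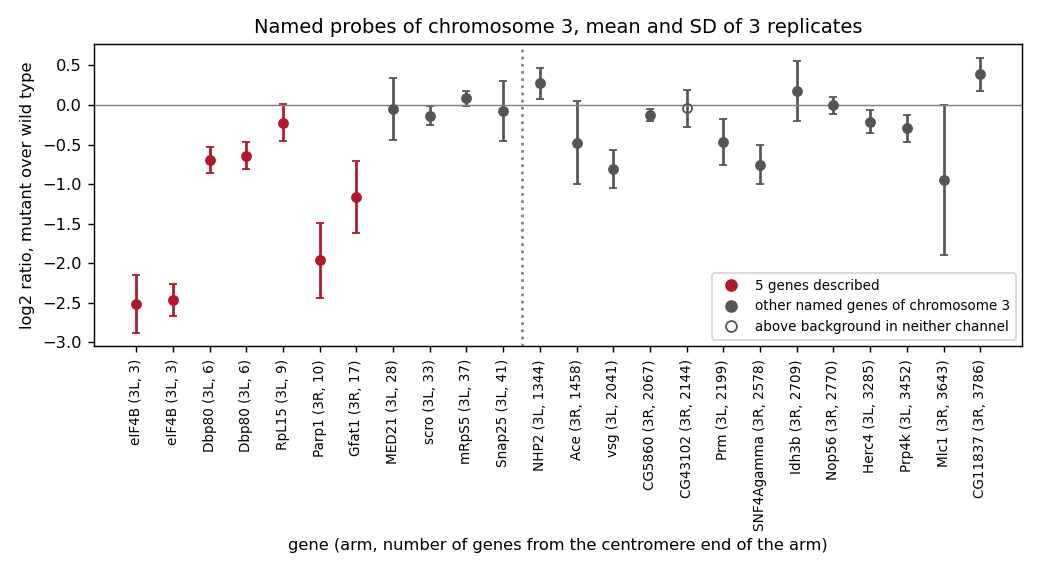
The vertical axis is the mean log2 ratio of mutant over wild type with bars of SD over 3 replicates, for the named probes of chromosome 3 in order of their number of genes from the centromere end of either arm; the 5 genes described are in red, and the dotted line marks the gap between ranks 41 and 1344. Ratios run from -2.51 to -0.23 in the 5 genes and from -0.13 to 0.08 in MED21, scro, mRpS5 and Snap25 of the left arm, of which scro and Snap25 were near background.

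Likeness of pattern was measured as the root mean square difference in log2 ratio over the 6 arrays, against 50 other named genes detected on at least 1 array. It is a description that depends largely on the mean ratio, by which the genes were chosen: eIF4B probe 8610 and Parp1 have means of -2.51 and -1.96. The nearest gene to both spots of eIF4B was Parp1, at 0.61 for probe 8610 and 0.58 for probe 9922, followed by Gyg (glycogenin) and lt (light). The nearest to Parp1 was eIF4B, entered here on its brighter spot alone (probe 8610), followed by Gyg at 0.81. The nearest to Gfat1 was up, the troponin T gene, at 0.22, with its replicates in the same order as those of Gfat1. The nearest to Dbp80 were p120ctn for probe 16 (0.28) and CG4294 for probe 11081 (0.26), and the nearest to RpL15 was Herc4 (0.11). The arrays of a replicate share their RNA, so these values rest on 3 independent samples.

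Other genes of the same functions were scarce among the named probes. The lists of translation initiation factors, of ADP-ribosylation and of the hexosamine pathway had no named member besides eIF4B, Parp1 and Gfat1. The list of RNA helicases, which did not include Dbp80 itself, had no named member. The list of ribosomal proteins was made of symbols starting with RpL or RpS. RpLP0-like, a relative of the stalk protein P0, was the only such symbol besides RpL15. RpLP0-like entered by its symbol alone, which does not make it a protein of the cytosolic ribosome. It was higher in the mutants, at 0.37, 0.55 and 0.54 in replicates 1, 2 and 3 (mean 0.49 ± 0.10, SD, n = 3, adjusted p = 0.0285 in limma). Of the other candidate genes of chromosome 3 heterochromatin that were listed, only Snap25 had a named probe.

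**Figure D4:**
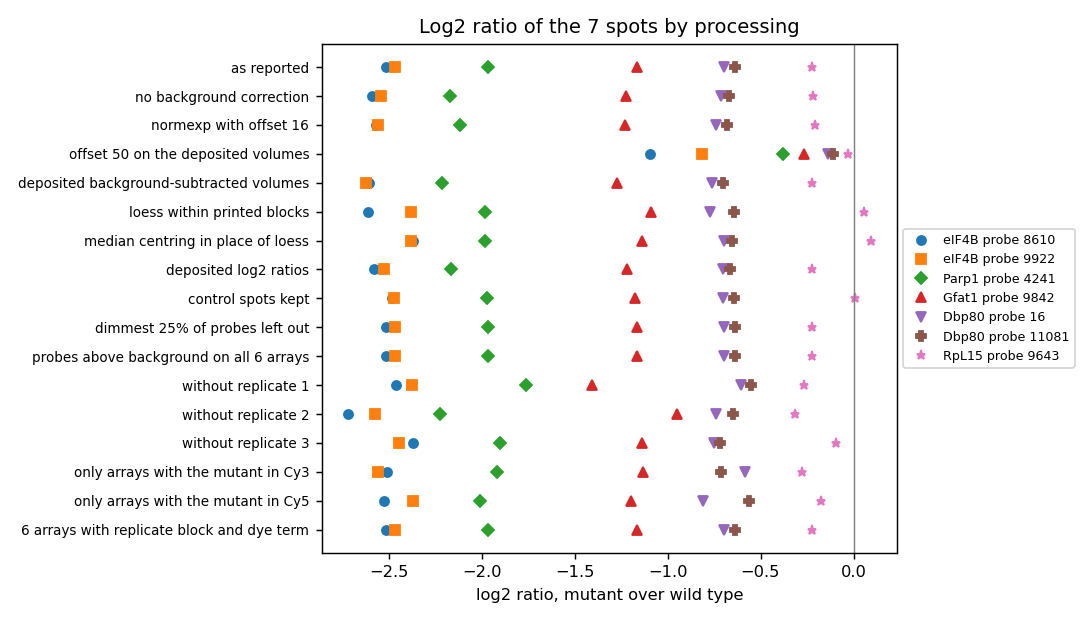
The horizontal axis is the log2 ratio of mutant over wild type, and each row is 1 way of processing, with 1 symbol for each of the 7 spots. Ratios of the other 4 genes stay below 0 in every row and move toward 0 with an offset of 50 on the deposited volumes, where eIF4B probe 8610 is at -1.10, and RpL15 lies on both sides of 0.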

How the data were processed

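Per the file headers, the authors quantified spots with ArrayVision; for each dye the deposited intensity values are the volume, its local background and the background-subtracted volume, beside a flag. A separate deposited table holds log2 ratios per spot made by the authors; the submitters' processing notes name limma without version or steps. Its rows were placed by print order, where it correlated at 0.988 to 0.998 with mutant over wild type over bright spots.

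Volumes were first scaled by an area of 0.02 square mm per spot, which is an assumption, then corrected with normexp (offset 50, equal to 1 on the deposited scale) and normalized by loess within each array in limma 3.58.1 under R 4.3.3. The 960 control or blank spots, recognised by layout (40 in each of 24 blocks of 15744 spots), had weight 0, and 62 flagged probes were left out. Arrays of a replicate were averaged and 3 values tested against 0 with eBayes. A second fit across all probes had dye orientation and replicate as terms, with 2 residual degrees of freedom. The fits were run on simulated data with added changes of 2 on the log2 scale, so recovery of smaller changes was not examined. The number of arrays limits the precision.

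The genes, lists and tests were chosen with earlier results of these data known. Named are the 5 genes, other named genes of chromosome 3, the nearest genes in ratio (3 per spot) and named members of the lists by function and of the tissue markers. Of the annotation's probes, 62 of 67 matched the reference gene table. Alternatives are given in the closing section.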

Additional observations from a re-analysis of the deposited data

How the results depend on the processing

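In 16 alternatives, the ratios of eIF4B, Parp1, Gfat1 and Dbp80 kept their direction and moved by more than 1 SD between replicates only with an offset of 50 on the deposited volumes, to -1.10 and -0.82 for eIF4B (probes 8610 and 9922), -0.38 for Parp1, -0.27 for Gfat1 and -0.14 and -0.11 for Dbp80 (probes 16 and 11081). That offset exceeds most signals, which shrinks ratios. RpL15 changed sign with loess within printed blocks (0.0538), median centring (0.0916) and control spots kept (0.0102); the cause was not tested. The Dbp80 spots differed by -0.126 with loess within printed blocks, 0.129 with mutant RNA in Cy3 alone and -0.247 with mutant RNA in Cy5 alone. Leaving out 1 replicate gave differences of -0.15 to 0.07 for eIF4B and -0.09 to -0.03 for Dbp80.

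Over all probes, limma called 2604 for mutant over wild type, 52 with the offset on volumes (19.2% of them lower, against 59.3%), 3933 with all 6 arrays, replicate block and dye term, and 0 to 3127 without 1 replicate. For dye orientation it called 3, against 0 in 7 alternatives (825 to 3174 at an unadjusted p under 0.05), 5 without the dimmest 25%, 13 among probes above background on all 6 arrays and 5 to 53 without 1 replicate. For replicate differences it called 4690, against 2488 without background correction, 2952 with offset 16, 2273 with median centring, 2056 with the deposited log2 ratios and 1598 to 5042 without 1 replicate. The causes were not tested. Slide or scan date was not run, as the tables used here give none. Signal limits Parp1 in the mutant channel. On the array of replicate 3 with mutant RNA in Cy3, eIF4B probe 9922 was also low in that channel, at 2.17 times local background. Dbp80 probe 16 was at 2.39 times there.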
